A study of Mus musculus with 583 samples.

Results

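The nuclear pore genes are 30 listed genes that encode proteins of the nuclear pore complex or factors docked on it. They were looked up by symbol in the annotation, and 29 of 30 had a row among the 38924 mouse genes of the count table. No row matched Nup62, a protein of the central channel, and it was not analysed here. All 29 passed the filter on low counts, which kept 14293 genes, so the counts below are over every member with a row.

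All cells were of the J1 line of mouse embryonic stem cells, cultured in 2i/LIF, which holds such cells in naive pluripotency with a cytokine and a pair of kinase inhibitors. All groups shared that line and culture, and the labels set them apart only by the method of library preparation. 6 methods were each run as replicates A and B, giving 12 libraries and 583 cells. Smart-seq / C1 (130 cells) and Smart-seq2 (157 cells) cover whole transcripts, and their values were taken as read counts. Drop-seq (76 cells), SCRB-seq (84), MARS-seq (65) and CEL-seq2 (71) tag the 3' end, where each unique molecular identifier (UMI) stands for a tagged molecule. CEL-seq2 and MARS-seq amplify cDNA by in vitro transcription, and SCRB-seq and Drop-seq by PCR. Read counting, full-length coverage and the remaining steps of each protocol cannot be told apart in this design.

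The nuclear pore complex is the channel through which proteins and RNA pass between nucleus and cytoplasm. An outer ring, built of Y-shaped subcomplexes, and an inner ring surround a central channel lined with phenylalanine-glycine repeats that transport receptors bind. Filaments on the cytoplasmic face release exported mRNA, a basket hangs on the nuclear face, and membrane proteins anchor the whole in the nuclear envelope. Its proteins are present in fixed proportion in each pore, and dividing cells take pores apart and rebuild them with each cycle.

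The library was the unit of replication, since cells of 1 library are not replicates. The labels do not say whether A and B came from separate cultures, so p-values rest on a spread between libraries that may be technical only. That spread is between replicates of a method. Differences among the methods of a class, such as the tag methods, do not enter the p-values or standard errors. Library totals ran from 583302 UMIs (Drop-seq B) to 34984056 reads (Smart-seq2 A), with 10184 to 344361 mouse counts in the shallowest cell of a library. All 12 naive and core pluripotency markers had counts in all 12 libraries, at a summed 2725 to 6255 CPM (counts scaled to a common library size). The 8 fibroblast markers together stayed at 3.41 to 59.6 CPM, with Postn at 0 in every library. Lists of primitive endoderm, trophectoderm, neural and mesendoderm markers reached at most a summed 34.4, 250, 153 and 93.5 CPM in a library. Libraries A and B shared 0 cell barcodes in Drop-seq, 21 in SCRB-seq, 19 in MARS-seq and 26 in CEL-seq2. In Drop-seq, 29 of 42 barcodes of A and 12 of 34 of B lay within 1 base of another barcode of the same library, and joining those left 25 and 28 cells.

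The start regions of the pore genes were read for sequence that the members share. RefSeq gave start regions on GRCm38.p6, the assembly also called mm10, for 25 of the 29 genes; Nup35, Nup43, Nup85 and Seh1l had no entry. In the 250 bases before the start, the ratio of observed to expected CpG had a median of 0.856 over the pore genes and 0.378 over 27018 genes, and 84% against 34.5% had a ratio above 0.6. The 27018 genes were not limited to those expressed in these cells. Median GC content was 62.8% over the pore genes and 52% over all. Motifs were searched on both strands as exact letters. The ETS motif CCGGAAGT was in 4 of 25 (16% against 3.23% of all genes), YY1's AAGATGGC in 2 (8% against 1.82%), the NRF1 motif in 2 (8% against 4.23%) and the SP1 box GGGCGGGG in 10 (40% against 18%). The NFY box CCAATNA was in 5 (20% against 16.3%) and TATAAA in 3 (12% against 14.3%). These matches describe letters and show no binding, and whether GC content set their shares was not tested.

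Windows of 60 bases with the motif in capitals, as found on either strand, are given 5′ to 3′ on the gene's strand for Aaas and Nup54, which hold the ETS letters, and for Nup107 and Nup50, which each hold the NRF1 motif more than once. They are Aaas (chr15:102350772-102350831, minus strand), Nup54 (chr5:92435242-92435301, minus strand), Nup107 (chr10:117792776-117792835, minus strand, then chr10:117792736-117792795, minus strand) and Nup50 (chr15:84923236-84923295, plus strand, then chr15:84923298-84923357, plus strand; another copy lies farther out).
Aaas, ETS: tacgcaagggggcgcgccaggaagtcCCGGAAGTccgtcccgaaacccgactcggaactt
Nup54, ETS: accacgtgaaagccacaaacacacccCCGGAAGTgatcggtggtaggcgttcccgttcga
Nup107, NRF1, farther copy: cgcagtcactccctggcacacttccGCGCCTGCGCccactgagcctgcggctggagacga
Nup107, NRF1, nearer copy: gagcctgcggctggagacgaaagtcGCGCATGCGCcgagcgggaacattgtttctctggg
Nup50, NRF1, middle copy: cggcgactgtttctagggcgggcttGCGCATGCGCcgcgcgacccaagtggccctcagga
Nup50, NRF1, nearest copy: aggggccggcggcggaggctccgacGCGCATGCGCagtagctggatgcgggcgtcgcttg
In Aaas the ETS motif ended 39 bases before the start and in Nup54 it ended 69 bases before. Nup155 and Sec13 hold the same ETS letters, 1 and 19 bases before their starts.

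Together the 29 genes held 0.539% and 0.606% of mouse gene counts in Smart-seq / C1 A and B and 0.463% and 0.427% in Smart-seq2. By the tag methods their summed share was 0.254% and 0.242% in Drop-seq, 0.293% and 0.299% in SCRB-seq, 0.155% and 0.204% in MARS-seq and 0.309% and 0.346% in CEL-seq2. The 4 full-length libraries all lay above the 8 tag libraries, and MARS-seq was the lowest method. Among single cells, the median cell gave 0.604% to the pore genes in Smart-seq / C1 B and 0.163% in MARS-seq A.

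**Figure D1:**
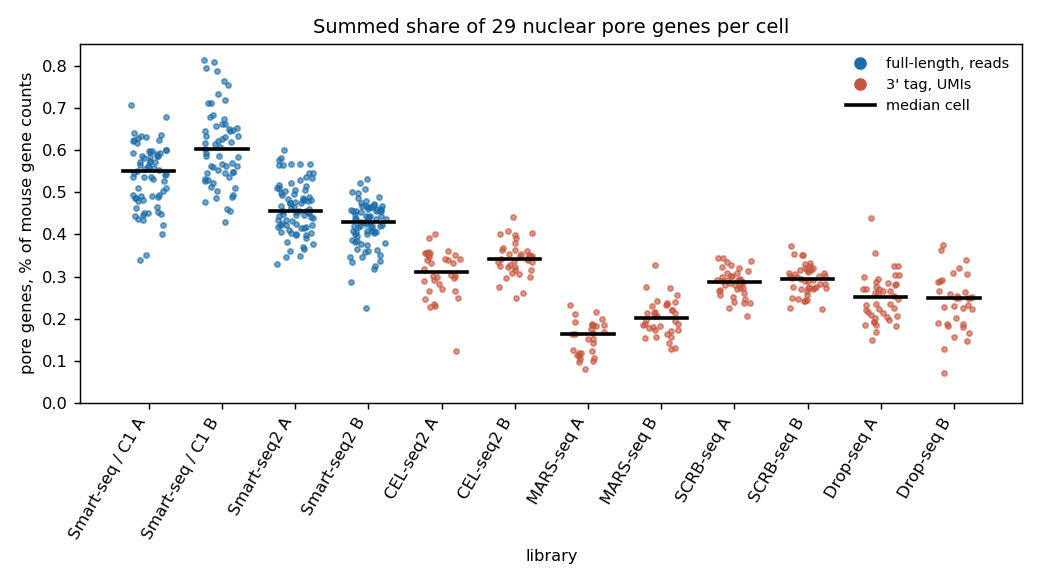
Percent of a cell's mouse gene counts that came from the 29 nuclear pore genes, per library; each point is a cell and each bar the median cell. Medians run from 0.163% in MARS-seq A to 0.604% in Smart-seq / C1 B, and the full-length libraries stand above the tag libraries.

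Levels of different genes were compared per length in the full-length libraries (CPM per kilobase of the longest annotated transcript, GENCODE M21) and per tagged molecule in the tag libraries (UMI CPM, where a transcript counts once whatever its length). On the per-length scale Sec13, a β-propeller of the outer ring that also belongs to the COPII coat, was the highest at 172 ± 57.8 CPM per kilobase (SD, n = 4). Nup43 followed at 133 ± 55.0, Nup85 at 126 ± 18 and Nup93 at 101 ± 30.7, and these neighbours did not differ beyond their spread. The lowest were Ddx19b at 4.68 ± 1.02 and Nup98 at 5.81 ± 1.46. Outer-ring genes took the first 3 places and no nuclear basket gene was above the tenth. This scale divides by length, and its first 9 places went to genes of 1448 to 3542 nucleotides.

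Counted per molecule, the order had another head. Tpr, the large coiled-coil protein of the basket, led with 474 ± 278 UMI CPM (SD, n = 8), ahead of Aaas at 184 ± 173 and Sec13 at 155 ± 59.2. Nup98, at 15.3 ± 8.87 UMI CPM, was again near the bottom. For Aaas the spread over 8 libraries was nearly as large as the mean. Across the 29 genes the orders on the per-length and per-molecule scales had a Spearman correlation of 0.632, a description over genes that are not independent and share these cells.

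The order of the 29 genes was held closely within a method and loosely between methods. Spearman correlations of CPM over the 29 genes ran from 0.798 (SCRB-seq) to 0.967 (Smart-seq2) between the replicates of a method, with a median of 0.877 over 6 pairs. For the 60 pairs of libraries from different methods they ran from 0.193 to 0.785, with a median of 0.589. Mean correlations were lowest between CEL-seq2 and Drop-seq (0.360), SCRB-seq (0.364) and Smart-seq / C1 (0.370), and highest between MARS-seq and Smart-seq2 (0.757). In edgeR's joint quasi-likelihood test of all methods, 26 of 29 pore genes differed, beside 65.5% of all genes tested. The exceptions were Nup35, Nup50 and Ddx19b.

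**Figure D2:**
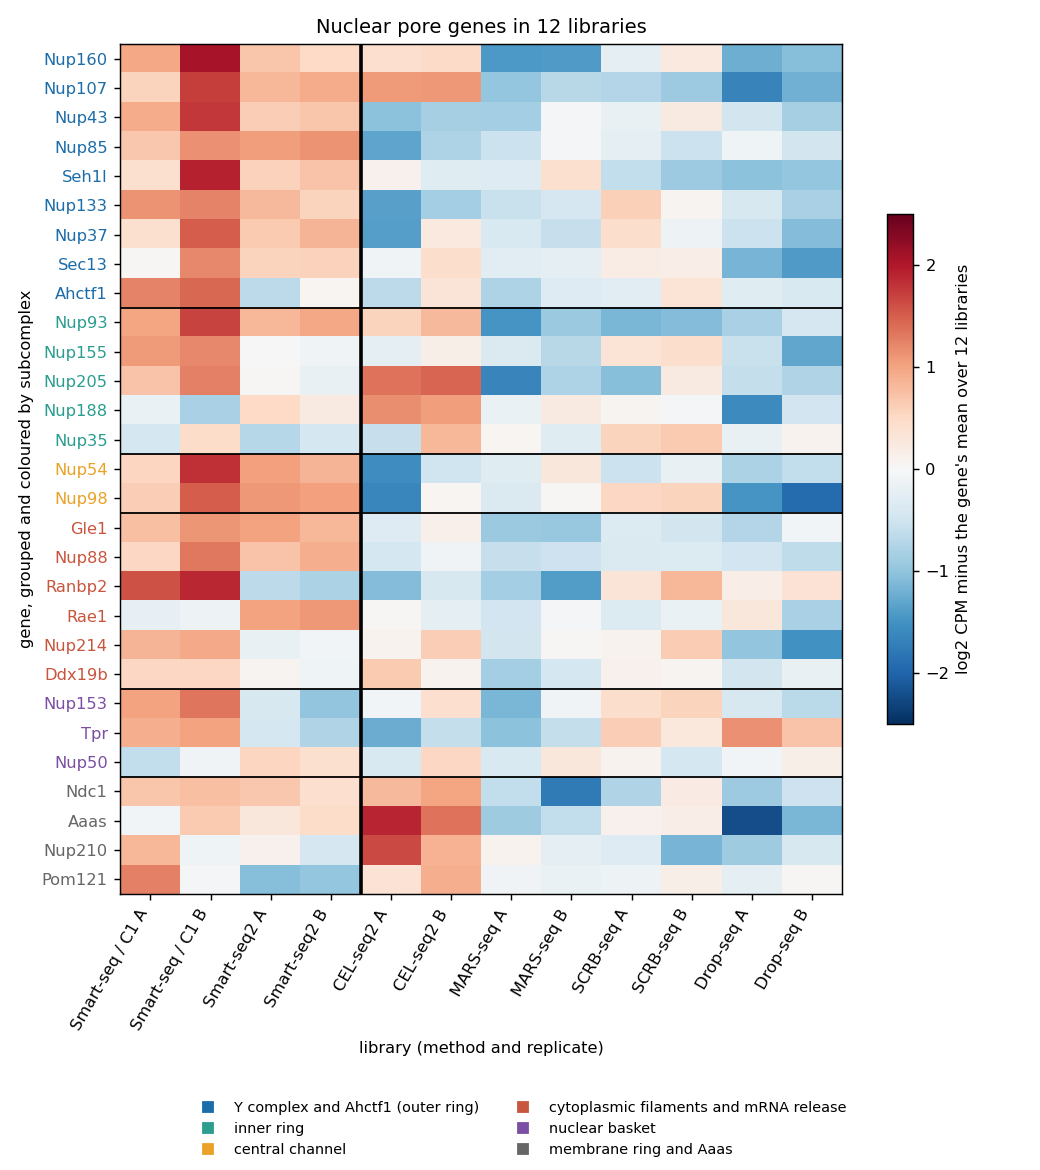
Level of each pore gene in each library as log2 CPM less that gene's mean over the 12 libraries, red for above and blue for below; genes are grouped by subcomplex and the thick line parts full-length from tag methods. Most outer-ring genes are red in all 4 full-length libraries, while Aaas, Nup210, Nup188 and Nup205 are highest in CEL-seq2 and Tpr is as high in Drop-seq as in Smart-seq / C1.

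Full-length against 3' tag methods was the broadest comparison. Every measured gene of the outer ring and the central channel was called higher by the full-length methods. Of the Y complex with Ahctf1, 9 of 9 genes rose (median log2 fold change 1.43). Both measured channel genes, Nup54 and Nup98, rose too (median 1.57). Of the cytoplasmic genes 5 of 6 rose, of the inner ring 3 of 5, of the membrane ring with Aaas 1 of 4, and of the nuclear basket none of the 3. For Ahctf1, Nup155, Nup205, Ranbp2, Nup214 and Rae1, 1 full-length method lay near or below the mean of the tag libraries, with values given below. In all, 20 of 29 rose, 0 fell and 9 did not pass in edgeR's quasi-likelihood test at an adjusted p below 0.05, beside 25.6% of all genes tested higher and 23.2% lower. The members' median log2 fold change was 0.79, and that of all genes was 0.21. For the count of 0, an unadjusted p below 0.05 gave 0 lower genes as well, and DESeq2 gave 17 higher and 0 lower.

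For 8 of the 29 genes the 4 full-length libraries did not overlap the 8 tag libraries, beside 17.5% of all genes tested: Nup160, Nup43, Nup85, Nup93, Nup54, Nup98, Nup88 and Gle1. Scaling with DESeq2's size factors moved the median of all genes from 0.21 to 0.07 and that of the pore genes from 0.79 to 0.65. When log2(CPM + 1) was averaged over cells these medians were 0.57 and 2.00. 13 of the 20 calls held under every other setting in which the gene was tested, 19 for 12 of them and 18 for Nup98, which the strictest count filter left out. The other 7 (Ahctf1, Ndc1, Nup155, Nup205, Nup214, Rae1 and Ranbp2) were each lost under at least 1 of them. Among the losses, Ahctf1 did not pass without Smart-seq2 B, Nup205 without Smart-seq2 A, and Nup214 without either Smart-seq2 library.

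**Figure D3:**
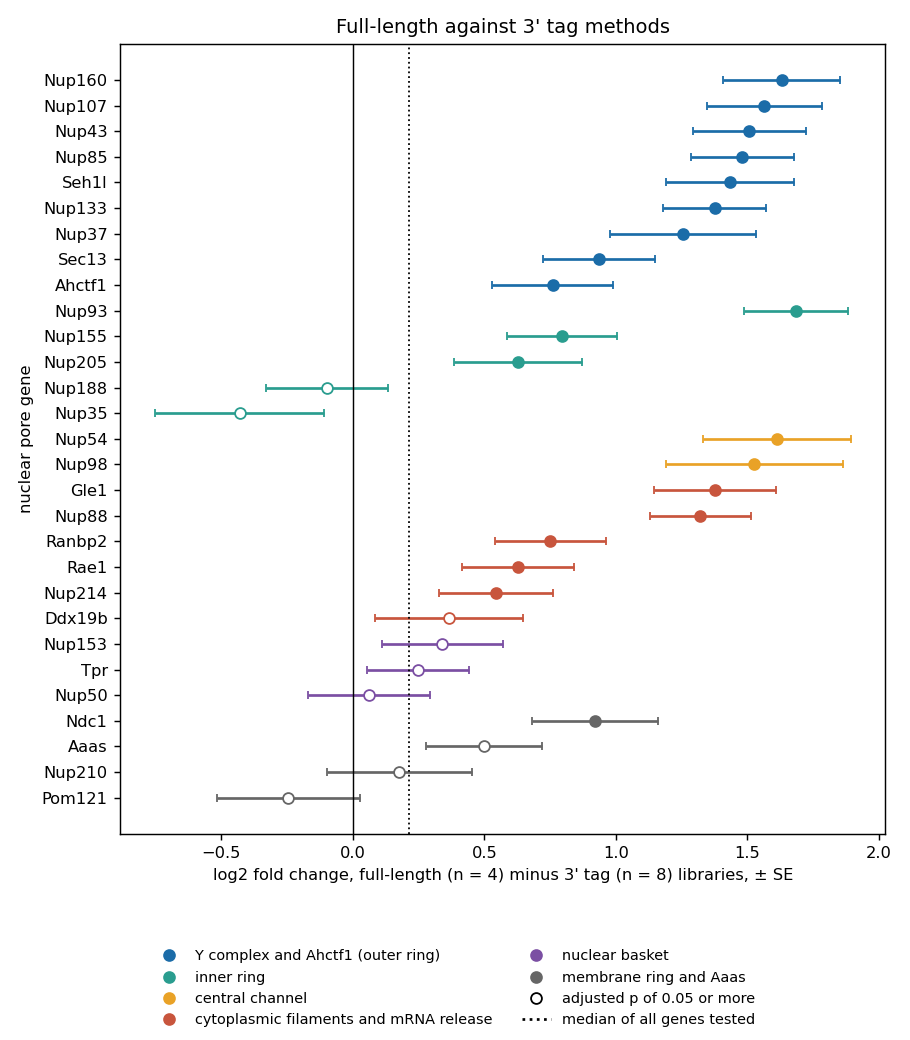
Log2 fold change of each pore gene between the 4 full-length and 8 tag libraries, with its standard error, grouped by subcomplex; filled points passed at an adjusted p below 0.05 and the dotted line is the median of all genes tested (0.21). All 9 outer-ring points are filled and all 3 basket points are open.

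In the outer ring, Nup160 and Nup107 rose the most. Nup160 (chr2:90677215-90736328, plus strand), a long arm protein of the Y, had 131 and 115 CPM in Smart-seq2 A and B, 158 and 341 in Smart-seq / C1, 35 and 38.7 in Drop-seq, 70.0 and 96.3 in SCRB-seq, 30.2 and 30.5 in MARS-seq and 108 and 114 in CEL-seq2. It rose by a log2 fold change of 1.63 ± 0.22 (SE; adjusted p = 8.27e-06), a 3.10-fold difference, yet its lowest full-length library (Smart-seq2 B) was only just above its highest tag library (CEL-seq2 B). Nup107 (chr10:117750621-117792705, minus strand), in the stem of the Y, had 178 and 191 CPM in Smart-seq2 A and B, 148 and 332 in Smart-seq / C1, 31.7 and 43.5 in Drop-seq, 60.2 and 53.7 in SCRB-seq, 51.6 and 62.1 in MARS-seq and 209 and 215 in CEL-seq2. Here the groups overlapped, because both CEL-seq2 libraries stood above Smart-seq / C1 A, and the log2 fold change was 1.56 ± 0.22 (SE; adjusted p = 1.05e-05).

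The abundant members of the outer ring were alike in direction. Sec13 (chr6:113728062-113740743, minus strand) stood at 259 and 261 CPM in Smart-seq2 A and B, 180.1 and 402 in Smart-seq / C1, 78.7 and 66.1 in Drop-seq, 199 and 198 in SCRB-seq, 144 and 149 in MARS-seq and 165 and 238 in CEL-seq2. It rose by 0.94 ± 0.21 (SE; adjusted p = 0.00139) on the log2 scale, with Drop-seq lowest. Seh1l, another β-propeller shared with the GATOR complex of nutrient signalling, had 206 and 225 CPM in Smart-seq2 A and B, 181 and 522 in Smart-seq / C1, 67.8 and 70.9 in Drop-seq, 90.3 and 73.6 in SCRB-seq, 110.3 and 182 in MARS-seq and 149 and 112 in CEL-seq2. Smart-seq / C1 B was far above all others for it, and the log2 fold change was 1.43 ± 0.24 (SE; adjusted p = 9.33e-05). Nup85 rose by 1.48 ± 0.20 (SE), Nup43 by 1.51 ± 0.21, Nup133 by 1.38 ± 0.20 and Nup37 by 1.25 ± 0.28. Nup85, which binds Seh1l, was at 222 to 308 CPM in the 4 full-length libraries and 56.3 to 137 CPM in the 8 tag libraries, with a median of 98.9. Nup43, a β-propeller on the short arm, was at 167 to 372 CPM in the 4 full-length libraries and 53.7 to 128 CPM in the 8 tag libraries, with a median of 70.8. For both of these genes the groups were apart, whereas for Nup133 a single SCRB-seq library (163 CPM) exceeded the lowest full-length one (158 CPM).

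Ahctf1 (ELYS, which brings the Y complex to chromatin when the nucleus re-forms) rose the least of the outer ring, by 0.76 ± 0.23 (SE; adjusted p = 0.0105). It had 65.2 and 106 CPM in Smart-seq2 A and B, 243 and 279.9 in Smart-seq / C1, 83.1 and 78.9 in Drop-seq, 84.1 and 129.6 in SCRB-seq, 60.5 and 82.0 in MARS-seq and 65.5 and 129 in CEL-seq2. Smart-seq2 lay within the range of the tag methods and only Smart-seq / C1 lay above it.

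The inner ring was divided. Nup93 (chr8:94214564-94317227, plus strand), the scaffold to which the other inner-ring proteins attach, had 235 and 260.2 CPM in Smart-seq2 A and B, 262 and 430.2 in Smart-seq / C1, 75.5 and 99.9 in Drop-seq, 60.2 and 63.0 in SCRB-seq, 48.0 and 70.3 in MARS-seq and 196 and 232 in CEL-seq2. All 4 full-length values lay above all 8 tag values, the last by a narrow margin over CEL-seq2 B. Its log2 fold change of 1.68 ± 0.20 (SE; adjusted p = 1.28e-06) was the largest of all 29 genes, 3.21-fold. Nup155 rose by 0.79 ± 0.21 (SE; adjusted p = 0.00436) and Nup205, a large solenoid protein, by 0.63 ± 0.24 (SE; adjusted p = 0.0414). Nup188, the paralog of Nup205, did not pass at -0.10 ± 0.23 (SE; adjusted p = 0.775), and neither did Nup35 at -0.43 ± 0.32 (SE; adjusted p = 0.286). Nup35, which binds membrane, is uncertain: 49.8% of its 31-base words were shared with other annotated genes, most of them with Gm4353. Its sign also turned, to 1.03 (adjusted p = 0.0427, limma), when the mean over cells of log2(CPM + 1) replaced the summed counts.

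Both channel genes with a row rose. Nup54 had 81.0 and 71.5 CPM in Smart-seq2 A and B, 57.3 and 139.9 in Smart-seq / C1, 23.0 and 25.8 in Drop-seq, 27.5 and 34.7 in SCRB-seq, 32.0 and 48.0 in MARS-seq and 13.4 and 27.9 in CEL-seq2. These groups were apart, by a log2 fold change of 1.61 ± 0.28 (SE; adjusted p = 1.25e-04), but 29.4% of its 31-base words were shared with Gm15790, so reads may be divided between the pair. Nup98 (chr7:102119398-102210176, minus strand), a repeat protein whose precursor is also cleaved to give Nup96 of the Y complex, had 38.6 and 37.0 CPM in Smart-seq2 A and B, 28.1 and 51.8 in Smart-seq / C1, 6.56 and 4.83 in Drop-seq, 26.1 and 26.8 in SCRB-seq, 14.2 and 18.7 in MARS-seq and 5.88 and 18.9 in CEL-seq2. It was the scarcest pore gene per molecule and was up by 1.53 ± 0.34 (SE; adjusted p = 0.0011), without overlap.

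Of the cytoplasmic face, Nup88 and Gle1 stood out. Nup88, which holds the filament proteins, had 238 and 274 CPM in Smart-seq2 A and B, 209 and 362 in Smart-seq / C1, 104 and 93.4 in Drop-seq, 113 and 114 in SCRB-seq, 97.8 and 102 in MARS-seq and 107 and 137 in CEL-seq2. The tag libraries were within a narrow band and all full-length libraries lay well above it (log2 fold change 1.32 ± 0.19, SE, adjusted p = 1.83e-05). Gle1, the activator of the helicase that strips exported mRNA, was at 79.6 to 101 CPM in the 4 full-length libraries and 24.6 to 51.3 CPM in the 8 tag libraries, with a median of 35.7, again without overlap and up by 1.38 ± 0.23 (SE). Ranbp2, Rae1 and Nup214 rose by less, 0.75, 0.63 and 0.54, with overlap. Ddx19b, that helicase itself, did not pass at 0.36 ± 0.28 (SE; adjusted p = 0.303). Its close relative Ddx19a and it share 14.4% of the 31-base words of Ddx19b, and Rae1 (12.7%) and Gle1 (11.5%) also have partial copies, so their counts are less sure.

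The basket genes were alike in not passing. Tpr (chr1:150392838-150449935, plus strand) had 315 and 255 CPM in Smart-seq2 A and B, 807 and 856 in Smart-seq / C1, 951 and 701 in Drop-seq, 658 and 518 in SCRB-seq, 212 and 286 in MARS-seq and 181 and 284 in CEL-seq2. Drop-seq A was the highest of all, and the groups overlapped completely (log2 fold change 0.25 ± 0.19, SE, adjusted p = 0.313). Nup153, which docks the basket, was at 0.34 ± 0.23 (SE; adjusted p = 0.237), and Nup50, a cofactor of importin release, at 0.06 ± 0.23 (SE; adjusted p = 0.877). As a share of all pore CPM the basket ran from 10.4% in CEL-seq2 A to 43.2% in Drop-seq A. Tpr alone was 5.62% and 37.1% there.

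Among the membrane genes only Ndc1, a multipass protein needed to insert new pores, rose, by 0.92 ± 0.24 (SE; adjusted p = 0.00395). Aaas (aladin, which Ndc1 anchors) was at 0.50 ± 0.22 (SE, adjusted p = 0.0707), Nup210 at 0.18 ± 0.28 and Pom121 at -0.25 ± 0.27. Aaas passed when any 1 of 7 libraries was left out (CEL-seq2 A, either Drop-seq, either MARS-seq, SCRB-seq A or Smart-seq / C1 A). Of Pom121's exonic bases, 11.9% overlapped Nsun5 on the other strand, and 12.4% of Nup188's overlapped other genes, so counts made without strand would mix them.

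The other genes of nuclear transport went in part the same way. Of 10 tested among 11 other pore genes, 6 rose and 1 fell by the full-length methods: Nup62cl rose by 2.09 and Nup58 (Nupl1 in the annotation) by 1.92 on the log2 scale, and Cetn3, the most abundant, did not pass at 0.14. Of 27 tested nuclear transport receptors, the importins and exportins, 18 rose and 2 fell (median log2 fold change 0.97). Ipo7 rose by 2.66 and Kpna1 by 1.65, while Kpnb1, the import receptor of highest expression, fell by 0.56 on the log2 scale. In the Ran cycle, which gives transport its direction, Rcc1 rose (0.59), Nutf2 fell (-1.22) and the other 4 of 6, with Ran itself at -0.09, did not pass. In the lamina and envelope list 4 of 16 rose and 3 fell, among them Lbr (1.76) and Emd (-1.75), with Banf1 at -0.39. The G1/S list had 29 of 39 higher and 2 lower (Mcm4 1.55, Rrm1 1.74, Nasp 0.16), and the G2/M list 32 of 52 higher and 1 lower (Hmgb2 -2.86, Lbr 1.76, Top2a -0.19). All of these counts were read beside the same 25.6% and 23.2% of all genes.

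Transcript length did not order the pore genes in this comparison as it ordered other genes. Over all 14156 genes with a length, the log2 fold change rose with the longest transcript (Spearman 0.437); over the 29 pore genes it was -0.312, both descriptions across genes that share the same libraries. Of transcripts of up to 2000 nucleotides, 11.9% of all genes were higher and 48.6% lower, whereas all 4 pore genes of that size (Nup37, Sec13, Nup43 and Rae1) were higher. Above 2000 and up to 4000 nucleotides 6 of 8 pore genes were higher beside 35.2% of all. Above 4000 and up to 6000 it was 4 of 7 beside 33.5%, and above that 6 of 10 beside 26.4%. In these longer classes 11.7%, 7.12% and 6.44% of all genes were lower. The rise over all genes lay mainly at the short end, with a median log2 fold change of -1.90 up to 2000 nucleotides. In the longer classes it was 0.59, 0.52 and 0.44, and the pore genes' medians were 1.46, 0.92 and 0.59. Above 2000 nucleotides both sets of medians thus fell with length. With the median coding transcript as the length, the members' correlation was -0.0202, and with the longest coding transcript, a choice added after seeing the data, -0.274. For Nup37 and Sec13 the longest annotated transcript is a 1-exon model of 1448 and 1599 nucleotides, close to their longest coding transcripts of 1277 and 1353.

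Set against the trend of all genes with length, the pore genes were a median 0.46 above it on the log2 scale, and 21 of 29 were above. The median of all genes lay 0.17 above the same smooth trend. By subcomplex, 9 of 9 outer-ring genes lay above it (median difference 1.19), both channel genes (1.24), 5 of 6 cytoplasmic genes (0.60), 3 of 5 of the inner ring (0.21), 2 of 4 membrane genes (0.03) and none of the basket (-0.16). Nup37 was the farthest above, by 2.11, and Nup35 the farthest below, at -0.78. When the trend was taken out of each library before the test, 14 rose, 8 of them in the outer ring, and Pom121 fell (-0.71, adjusted p = 0.0476).

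**Figure D4:**
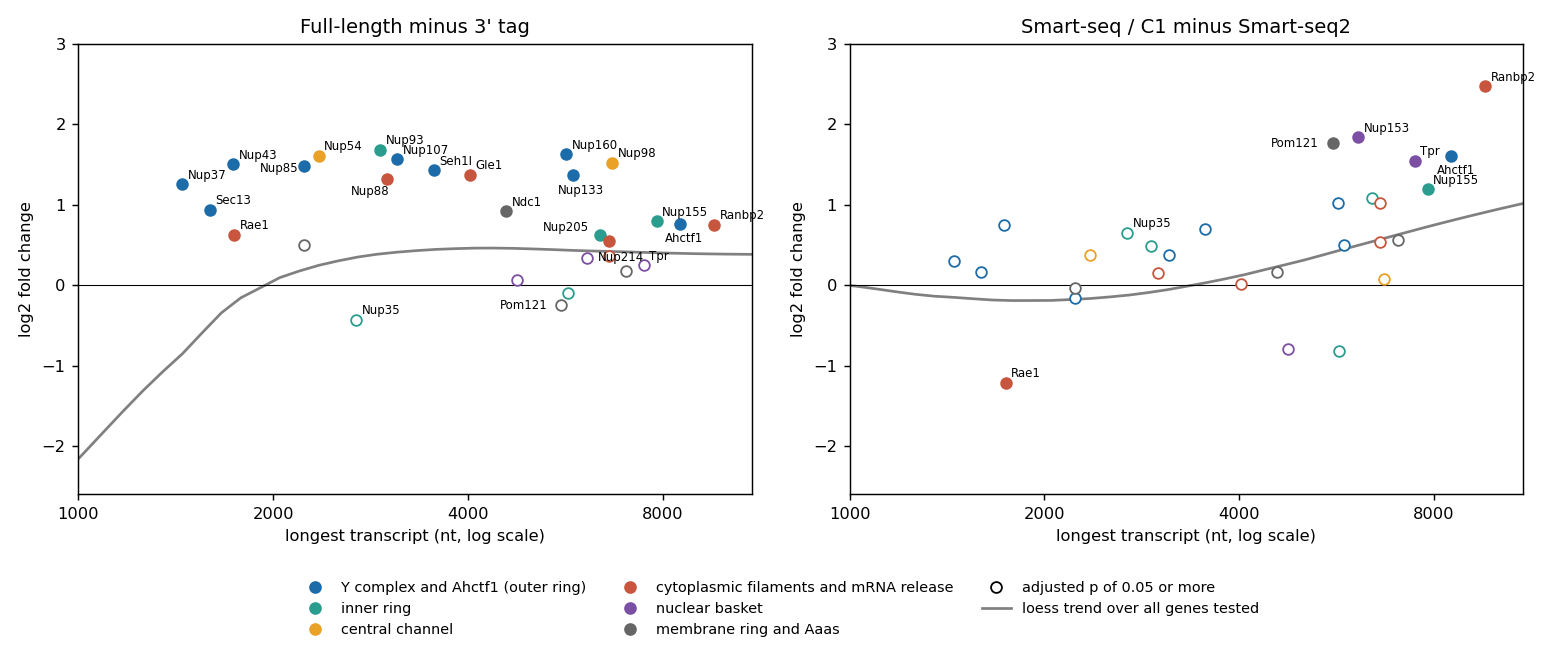
Log2 fold change of each pore gene against its longest transcript (log axis), for full-length minus tag methods on the left and Smart-seq / C1 minus Smart-seq2 on the right; filled points passed and the line is the loess trend of all genes tested. On the left the short outer-ring genes lie far above the line, and on the right the 6 higher genes are all of 5580 nucleotides or more.

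Smart-seq / C1 against Smart-seq2 compared the full-length methods with each other, 2 libraries a side. Ranbp2, Nup153, Pom121, Ahctf1, Tpr and Nup155 were higher in Smart-seq / C1 and Rae1 was lower. These 6 and 1 of 29 stand beside 8.76% and 6.82% of all genes. The 6 come from all of the subcomplexes but the central channel, and the longest transcripts of 5 of them exceed 6000 nucleotides.

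Ranbp2 (chr10:58446920-58494356, plus strand), the giant SUMO ligase of the cytoplasmic filaments and the longest member at 9608 nucleotides, had 52.7 and 48.0 CPM in Smart-seq2 A and B, 252 and 309 in Smart-seq / C1, 93.0 and 106 in Drop-seq, 104 and 147 in SCRB-seq, 46.2 and 31.6 in MARS-seq and 39.5 and 63.0 in CEL-seq2. In Smart-seq / C1 it was 5.57-fold above Smart-seq2 (log2 fold change 2.48 ± 0.36, SE, adjusted p = 2.44e-04), and Smart-seq2 lay among the tag methods. Nup153 had 62.7 and 41.7 CPM in Smart-seq2 A and B, 166 and 208 in Smart-seq / C1, 62.3 and 51.6 in Drop-seq, 112 and 122 in SCRB-seq, 37.4 and 77.3 in MARS-seq and 78.9 and 111 in CEL-seq2. It rose by 1.84 ± 0.38 (SE; adjusted p = 0.00339). Tpr rose by 1.55 ± 0.32 (SE; adjusted p = 0.00372), Ahctf1 by 1.61 ± 0.38 (SE; adjusted p = 0.00835) and Nup155 by 1.19 ± 0.34 (SE; adjusted p = 0.025).

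Pom121, a membrane protein with a repeat domain, had 22.6 and 24.2 CPM in Smart-seq2 A and B, 114 and 45.7 in Smart-seq / C1, 40.5 and 48.3 in Drop-seq, 43.4 and 52.3 in SCRB-seq, 44.5 and 42.2 in MARS-seq and 60.5 and 89.0 in CEL-seq2. It rose by 1.77 ± 0.44 (SE; adjusted p = 0.0111), but Smart-seq / C1 A held more than double the value of B. Rae1, an mRNA export factor of 1742 nucleotides, had 224 and 235 CPM in Smart-seq2 A and B, 95.8 and 102 in Smart-seq / C1, 135 and 62.8 in Drop-seq, 87.2 and 99.1 in SCRB-seq, 80.04 and 109 in MARS-seq and 113 and 93.2 in CEL-seq2. It fell by 1.21 on the log2 scale (adjusted p = 0.0258), with Smart-seq2 above every other library. In this contrast the correlation of log2 fold change with length was 0.558 over the 29 pore genes and 0.169 over all genes. Among the 10 pore genes longer than 6000 nucleotides the median log2 fold change was 1.14 and 5 rose, beside a median of 0.82 and 24.7% of all genes that long.

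With 2 libraries a side the count moved. Ahctf1 was lost without Smart-seq2 A, Nup153 without Smart-seq2 B, Tpr without either, Rae1 without either or Smart-seq / C1 B, Pom121 without either or Smart-seq / C1 A, and Nup155 under 11 of 19 settings. The number passing was 2 without Smart-seq2 A or without Smart-seq2 B, 11 without Smart-seq / C1 A, and 4 (4 higher, 0 lower) with the length trend removed. The members' median log2 fold change of 0.50 turned to -0.27 when the mean over cells of log2(CPM + 1) was used, where only Ranbp2 passed. The median of all genes moved with it, from 0.11 to -0.36. Ranbp2 alone passed under every setting tried.

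CEL-seq2 against MARS-seq compared the methods that amplify by in vitro transcription. Nup205, Aaas, Ndc1, Nup107, Nup160, Nup93 and Nup210 were higher in CEL-seq2, 7 of 29 beside 11% of all genes. None was lower, beside 12.4%, while 1 had an unadjusted p below 0.05 and DESeq2 called 6 higher and 1 lower. The share of all genes that were lower depended on length: 28.7% up to 2000 nucleotides, where 4 pore genes lie. In the longer classes it was 5.16%, 1.93% and 1.69%. By subcomplex, 3 of 4 membrane genes, 2 of 5 of the inner ring and 2 of 9 of the outer ring rose.

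Nup205 had 85.9 and 73.6 CPM in Smart-seq2 A and B, 138 and 201 in Smart-seq / C1, 55.8 and 49.9 in Drop-seq, 40.3 and 98.6 in SCRB-seq, 26.7 and 49.2 in MARS-seq and 217 and 232 in CEL-seq2. The CEL-seq2 libraries were the highest of all 12 for it, 5.80-fold above MARS-seq (log2 fold change 2.54 ± 0.45, SE, adjusted p = 5.72e-04). Aaas (chr15:102338252-102350771, minus strand) had 173 and 196 CPM in Smart-seq2 A and B, 136 and 223 in Smart-seq / C1, 30.6 and 64.4 in Drop-seq, 154 and 159.7 in SCRB-seq, 76.5 and 92.5 in MARS-seq and 529 and 364 in CEL-seq2. It rose by 2.39 ± 0.39 (SE; adjusted p = 2.66e-04), and its 2 highest libraries of the 12 were those of CEL-seq2. Ndc1 had 122 and 102 CPM in Smart-seq2 A and B, 122 and 128 in Smart-seq / C1, 40.5 and 53.2 in Drop-seq, 45.2 and 87.0 in SCRB-seq, 49.8 and 22.3 in MARS-seq and 133 and 150.1 in CEL-seq2, and was up by 2.01 ± 0.44 (SE; adjusted p = 0.00323).

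Nup107 rose by 1.89 ± 0.39 (SE; adjusted p = 0.00208), Nup160 by 1.87 ± 0.42 (SE; adjusted p = 0.00354) and Nup93 by 1.84 ± 0.36 (SE; adjusted p = 0.00127). Nup210, a membrane protein with a large lumenal domain, rose by 1.38 ± 0.48 (SE; adjusted p = 0.0447), a call that was lost under 12 of 19 settings, among them without CEL-seq2 A, SCRB-seq A or any library of Drop-seq, MARS-seq or Smart-seq2. Without MARS-seq B, Ndc1 did not pass. Nup107, Nup205, Nup93 and Aaas passed under every setting. With the length trend removed 4 were higher and 2 lower. The count rose to 18, all higher, when log2(CPM + 1) was averaged over cells, a scale on which the median of all genes moved from 0.19 to 0.85 and that of the pore genes from 0.46 to 2.27. With DESeq2's size factors the medians were 0.02 and 0.29.

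Drop-seq against SCRB-seq compared the tag methods that amplify by PCR, and 2 pore genes passed on the summed counts. None was higher in Drop-seq and Aaas and Nup214 were lower, 2 of 29, beside 1.03% and 0.483% of all genes. At an unadjusted p below 0.05, 0 were higher and 9 lower, and DESeq2 gave 0 and 3. Aaas fell by 1.75 on the log2 scale (adjusted p = 0.0336), from 157 ± 4.28 CPM (SD, n = 2) in SCRB-seq to 47.5 ± 23.9 CPM (SD, n = 2) in Drop-seq. Nup214, a repeat protein that leads the filament complex on the cytoplasmic face, had 68.8 and 74.96 CPM in Smart-seq2 A and B, 140.3 and 150.5 in Smart-seq / C1, 39.4 and 27.4 in Drop-seq, 83.7 and 121 in SCRB-seq, 56.9 and 79.7 in MARS-seq and 83.1 and 119 in CEL-seq2. It fell by 1.60 on the log2 scale (adjusted p = 0.0487).

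The Drop-seq values of both genes lay below both SCRB-seq values. The number that passed was 0 without either library of Drop-seq, SCRB-seq or MARS-seq, and 1 without CEL-seq2 A or either Smart-seq2 library. It was 0 with the length trend removed, 1 with DESeq2's size factors and 1 in the paired fit with a replicate block, where Nup214 was lost. Over the 29 genes the median log2 fold change was -0.41, beside -0.09 for all genes. These became -0.20 and 0.11 under DESeq2's size factors. When log2(CPM + 1) was averaged over cells they were -1.96 and -0.82, and 18 pore genes were lower.

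In vitro transcription against PCR set 4 tag libraries against 4. Nup210, Nup107, Aaas, Nup188 and Seh1l were higher with in vitro transcription and Tpr and Ranbp2 were lower, 5 and 2 of 29 beside 9.14% and 12.9% of all genes. The members' median log2 fold change was 0.07, with -0.08 for all genes. When log2(CPM + 1) was averaged over cells these were -0.04 and -0.09. Both genes that fell encode very long proteins at opposite faces of the pore.

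Tpr averaged 240.4 ± 52.8 CPM (SD, n = 4) with in vitro transcription and 707 ± 181 CPM (SD, n = 4) with PCR. The 4 libraries of each kind did not overlap, and it fell by 1.53 on the log2 scale (adjusted p = 2.06e-04). Ranbp2 averaged 45.1 ± 13.3 CPM (SD, n = 4) and 113 ± 23.8 CPM (SD, n = 4) and fell by 1.32 (adjusted p = 0.00193), also without overlap. Both passed under every setting, as did Nup107.

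Nup210 had 52.3 and 36.5 CPM in Smart-seq2 A and B, 86.6 and 44.9 in Smart-seq / C1, 26.2 and 37.1 in Drop-seq, 39.0 and 21.8 in SCRB-seq, 51.6 and 41.0 in MARS-seq and 152 and 88.3 in CEL-seq2. The groups were apart, although only by the margin of MARS-seq B over SCRB-seq A, and CEL-seq2 A was the highest (log2 fold change 1.26 ± 0.34, SE, adjusted p = 0.0143). Nup188 had 121 and 99.7 CPM in Smart-seq2 A and B, 75.9 and 48.7 in Smart-seq / C1, 28.4 and 61.2 in Drop-seq, 89.9 and 83.8 in SCRB-seq, 76.5 and 99.6 in MARS-seq and 191 and 177 in CEL-seq2. It rose by 1.04 ± 0.28 (SE; adjusted p = 0.0135). Nup107 rose by 1.26 ± 0.28 (SE; adjusted p = 0.00424), Aaas by 1.19 ± 0.27 (SE; adjusted p = 0.00524) and Seh1l by 0.87 ± 0.30 (SE; adjusted p = 0.0474). For Aaas, Nup107 and Nup188 the groups overlapped, with MARS-seq close to the PCR methods and CEL-seq2 far above, while for Seh1l they were apart. Without Drop-seq A only 3 genes passed in all, 1 higher and 2 lower, and Aaas was among the losses. Nup188 was also lost without MARS-seq B or SCRB-seq A, and Nup210 without CEL-seq2 A, MARS-seq A or SCRB-seq B. The call for Seh1l was lost under 12 of 19 settings, among them without any library other than those of Smart-seq / C1.

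Detection in single cells followed the levels. After each cell was thinned to 10000 counts, no cell being shallower, the median pore gene was seen in 68.1% and 68.9% of the cells of Smart-seq / C1 A and B, 67.5% and 66.2% in Smart-seq2, 35.7% and 41.2% in Drop-seq, 53.8% and 60% in SCRB-seq, 27.6% and 38.9% in MARS-seq and 50% and 62.2% in CEL-seq2. With barcodes 1 base apart joined, Drop-seq had 36% and 35.7%. MARS-seq A was the lowest and the full-length libraries were close together. The 10000 counts are reads in the full-length methods and UMIs in the tag methods, so depth in molecules was not made equal. Without thinning the medians ran from 51.7% (MARS-seq A) to 100% (CEL-seq2 B and both Smart-seq2 libraries), at median depths of 16193 to 493394 counts per cell. The samples hold no cells known to lack the pore genes, so a background share from free RNA was not measured, for the scarce members either.

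Tpr was detected in 70.6% (CEL-seq2 A) to 100% of thinned cells, and in all cells of Smart-seq / C1 A, SCRB-seq B and both Drop-seq libraries. Sec13 came next by mean over libraries, at 47.6% to 92.5%. Nup98 was at the other end. In CEL-seq2 A it was seen in 6 of 34 cells from all counts (17.6%, exact Clopper-Pearson 95% interval 6.76% to 34.5%) and in 0 of 34 after thinning. At that thinned depth the exact upper limit is 10.3% of cells with a count (3 counts of 34 would be 8.82%), which bounds detection and not the cells that express the gene. Its highest share was 39.3% in Smart-seq / C1 B (24 of 61 cells, 27.1% to 52.7%). Of the subcomplexes the central channel had the lowest median detection, 23.0% over libraries, and the nuclear basket (62.9%) and outer ring (59.2%) the highest. Intervals cover counting error only.

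**Figure D5:**
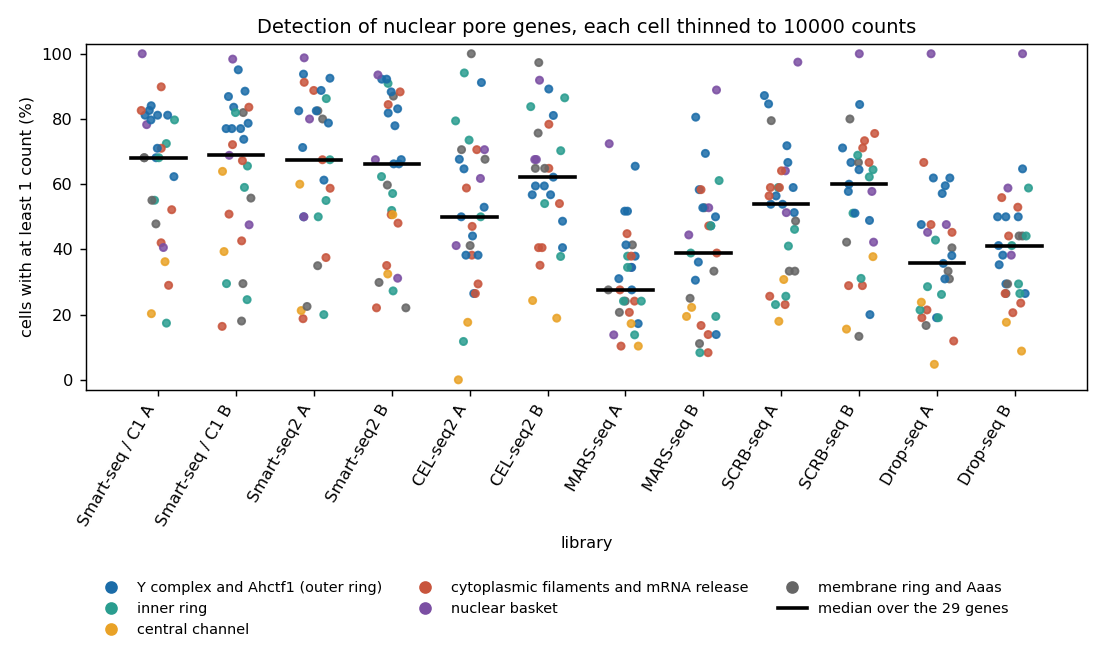
Percent of cells with at least 1 count of each pore gene after thinning to 10000 counts, by library; points are genes coloured by subcomplex and bars are medians over the 29 genes. The bars lie between 27.6% (MARS-seq A) and 68.9% (Smart-seq / C1 B), and the nuclear basket point near 100% in most libraries is Tpr.

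Cell to cell, the pore genes varied about as much as other genes of their level. The variance over the mean of thinned counts, which is 1 for pure counting, had a median over pore genes of 1.05 to 1.25 in the tag libraries other than MARS-seq A (1.47). It was 1.26 and 1.28 in Smart-seq2 and 1.81 and 2.04 in Smart-seq / C1. In both of these methods counts are reads, in which copies of 1 molecule are counted again. The cause of the difference between methods was not tested. Of the 18 pore genes with a mean of at least 0.2 thinned counts in every library, 0 varied above the trend of genes of like level and 0 below it in limma's test over libraries at an adjusted p below 0.05. The same test called 3.28% of 2654 genes above and 3.13% below.

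At an unadjusted p below 0.05, 1 pore gene was above the trend: Nup155, with a residual log2 squared coefficient of variation of 0.30 ± 0.11 (SE; adjusted p = 0.0766), above the trend in 7 of 12 libraries. 1 gene passed without Drop-seq B, and 1 without MARS-seq A. With the Drop-seq barcodes joined, 21 pore genes could be tested and 0 passed. The members' median residual was -0.01, and 9 of 18 were positive. The 11 members that could not be tested were those too scarce in at least 1 library, and nothing is said of their variation.

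The summed share of the pore genes varied among cells with a coefficient of variation of 11.5% (SCRB-seq A) to 28.1% (Drop-seq B), where counting alone would give 8.5% and 16.1%. In the full-length libraries it was 12.9% to 15.2% against 2.23% to 2.89% from counting, in reads. Across cells within a library, the pore share had a Spearman correlation with the share of the G1/S genes of -0.113 (Drop-seq A) to 0.576 (CEL-seq2 A), positive in 9 of 12 libraries. With the G2/M genes it ran from -0.197 to 0.505, also positive in 9 of 12, and was negative in 3 of the 4 full-length libraries. The medians over 12 libraries were 0.267 for G1/S and 0.261 for G2/M. With the transport receptors it was positive in 12 of 12, from 0.00309 to 0.602, and with the Ran cycle in 4 of 12. With the naive and core pluripotency markers, a list of neither cycle nor transport, it was positive in 10 of 12 (-0.192 to 0.435, median 0.128). Signs alone thus do not set the cycle lists apart. These are descriptions over 29 to 80 cell barcodes that share a library and a depth. The pore share itself had a correlation of -0.102 to 0.567 with the total count of the cell, positive in 11 of 12. In Drop-seq some barcodes may come from the same cell. With barcodes 1 base apart joined, a choice added after seeing the data, the 25 and 28 cells of Drop-seq A and B had coefficients of variation of 23% and 25.8%, in place of 22.5% and 28.1%. Their correlations with the G1/S share were then -0.0631 and -0.00438, with the G2/M share 0.06 and 0.158, and with the transport receptors 0.0585 and 0.299, and no sign turned.

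Single genes had weak correlations with the cycle lists, and signs often differed between libraries. With the G1/S share, Nup133, Nup153, Nup155, Nup160, Nup50, Nup85, Nup93 and Tpr were positive in all 4 full-length libraries and Nup35 was negative in all 4 (-0.404 to -0.136). With the G2/M share, Nup155, Nup35 and Nup37 (0.183 to 0.387) were positive in all 4 and Nup93 negative. Over all 12 libraries the genes named as positive with G1/S were positive in 7 (Nup50) to 11 (Nup153), and Nup35 in 3. With G2/M, Nup155 and Nup35 were positive in 10, Nup37 in 8 and Nup93 in 4. The share of all genes that keep 1 sign in the full-length libraries was not computed. These genes were singled out after their values were seen. The median over 12 libraries was within 0.159 of 0 for every member with G1/S and within 0.212 for G2/M.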

How the data were processed

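The authors deposited 1 table of whole-number counts per gene and cell, UMIs for the tag methods and, with no UMI in those protocols, counts taken here as reads for Smart-seq / C1 and Smart-seq2. Per the submitters' processing notes, bcl2fastq, STAR 2.4.0 and mm10 were used; what counted the Smart-seq reads and the annotation are given in none of the sources used here. Symbols, positions and lengths came from GENCODE M21 (GRCm38), matching 37607 identifiers; 0 columns were left unmapped.

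Counts were summed over the cells of each library and fitted with edgeR 4.0.16 (filterByExpr, TMM, robust quasi-likelihood, 1 mean per method, 12 libraries, 6 residual degrees of freedom, common biological coefficient of variation 0.418). Benjamini-Hochberg adjustment ran over 14293 genes and calls were made below 0.05. CPM are TMM-scaled, and group values are means over libraries. Methods were averaged on the log2 scale. Variation among cells used limma 3.58.1 on thinned cells (10000 counts, loess span 0.5). Alternatives were DESeq2 1.42.0 and its size factors, other filters, a replicate block, limma on mean log2(CPM + 1), a length offset (loess) and each library left out; the longest coding transcript and the joined Drop-seq barcodes in the correlations across cells were added after the data were seen. Scripts were tested on simulated data. No cell was removed and no doublet caller was run.

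The members and all lists were chosen with earlier results of these data known. Values in every library are given for up to 5 rises and 5 falls per contrast, the 5 smallest joint p-values and the most expressed gene of each subcomplex; other members and, of the other transport, envelope and cycle lists, the 2 genes of lowest p and the 1 of highest expression, are named too.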

Additional observations from a re-analysis of the deposited data

How the results depend on the processing

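The 20 calls between full-length and tag methods became 15 to 25 and the 26 of the joint test 22 to 29 over all alternatives, within 1.5 times in each. Against Smart-seq2, the 7 calls of Smart-seq / C1 became 1 when log2(CPM + 1) was averaged over cells, 4 with the length trend removed and 2 to 11 with 1 library left out. The 7 of CEL-seq2 against MARS-seq became 18 on the mean over cells. The 2 of Drop-seq against SCRB-seq became 18 on the mean over cells, 1 with DESeq2's size factors, 0 with the length trend removed and 0 to 3 with 1 library left out. The 7 of in vitro transcription against PCR became 3 to 8 with 1 library left out. The 0 for variation among cells became 0 to 1. The cause of these shifts was not tested. Nup35 reversed between full-length and tag methods, from -0.43 (adjusted p = 0.286, edgeR) to 1.03 (adjusted p = 0.0427, limma).

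With the replicate letters as a replicate block, Drop-seq against SCRB-seq kept 1 call and the other counts were the same (20, 7, 7, 7, 26 and 0). The letters did not pair the libraries: correlations of A less B between methods ran from -0.0768 to 0.129, with 1 of 15 above 0.1. Thinning to 5000 counts lowered median detection in all 12 libraries, to 20.7% to 52.5%. Pore counts were fewest in MARS-seq and Drop-seq, where 1030 to 2343 UMIs in all came from pore genes. Whether depth set the detection in these methods was not tested.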
